A study of Homo sapiens with 9 samples.

Results

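A stretch of chromosome 10 in PC3 cells, from 75 to 85 Mb (hg19), was examined for peaks of p300. PC3 is an established line from a metastatic human prostate carcinoma. The members of the stretch are all peaks of 5 deposited p300 peak lists whose midpoint lies in that interval, 954 of 19861 peaks in all. The stretch was chosen by the number of peaks in it, pooled over the lists, so its density is given below as a description and was not tested. All cells received 20 Gy of radiation and were fixed 1 h later in 1% formaldehyde, and no unirradiated group was available. The untreated group (2 lists) received no drug, and the treated group (3 lists) received 30 µM MnTE-2-PyP for 24 h before irradiation. MnTE-2-PyP, labelled T2E in some sample names, is a manganese porphyrin that mimics superoxide dismutase. The series describes the samples as biological replicates of a single line, and the 4 input libraries had no values used here. Each list holds the peaks of 1 library, and the read depth behind them is unknown.

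p300, the product of EP300, is a histone acetyltransferase that is brought to enhancers and promoters by transcription factors and acetylates histone tails there. It is a coactivator for many factors, among them factors that respond to oxidative stress and low oxygen. A peak in such a list marks a place where sequenced fragments from the p300 pull-down pile up above the local background set by the caller. The bands 10q22 and 10q23 of this arm carry, from the centromere outwards, PLAU (urokinase), VCL (vinculin, an adhesion protein), KAT6B (another histone acetyltransferase), KCNMA1 (a potassium channel), ZMIZ1 (a coactivator of the androgen receptor) and NRG3 (a growth factor). The order is that of the RefSeq table of GRCh38.p14. The lists are on hg19 and no hg19 annotation was used, so no peak was assigned to a gene and regions are named by position.

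Across the series the lists held 528 to 10059 peaks. The deposited score, whose scale is not named, was used to rank peaks within a list. A raw minimum common to all lists was applied only as an alternative setting, and scores printed below were not compared between lists. Treated list 3 is the shortest list and holds 13 of the 954 members, so its percentages and medians rest on few peaks. Identifiers in the peak names, not described in the labels, are shared by untreated list 1 and treated list 1 and by untreated list 2 and treated list 3, while treated list 2 has its own.

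The stretch held 158 peaks in untreated list 1, 82 in untreated list 2, and 452, 249 and 13 in treated lists 1, 2 and 3. Within chromosome 10 it took 53.0% and 41.8% of the peaks of the untreated lists and 56.2%, 35.3% and 26.5% of those of the treated lists. As a share of the whole list this was 6.83% (exact 95% interval 5.84 to 7.94%) in untreated list 1 and 4.02% (3.21 to 4.97%) in untreated list 2. The treated lists 1, 2 and 3 had 9.18% (8.39 to 10.0%), 2.48% (2.18 to 2.80%) and 2.46% (1.32 to 4.17%). The highest and the lowest shares were both in treated lists, with the untreated lists between them. The group means were 5.43% ± 1.99 without the drug (SD, n = 2) and 4.71% ± 3.88 with it (SD, n = 3), a difference smaller than the spread within either group. Its direction was not stable: the log2 ratio of the means was -0.21, and it became 0.23, 0.10 and 0.10 when untreated list 1, treated list 2 or treated list 3 was left out. It was 0.20 with peaks at or above the median score of their list. The intervals are Clopper-Pearson intervals, they cover counting error only, and neighbouring peaks are not independent.

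Peak density was 15.8 and 8.2 per Mb without drug and 45.2, 24.9 and 1.3 per Mb with drug. These densities were 20.5 and 12.05 times the genome-wide density of the same list without the drug, and 27.5, 7.41 and 7.38 times with it. The nearest other peak of the same list lay at a median distance of 7.92 and 11.6 kb without drug, 2.72 and 3.32 kb in treated lists 1 and 2 and 86.4 kb in treated list 3. In the rest of each list the median distance was 115.6 and 131.7 kb without the drug and 33.0, 32.4 and 112.2 kb with it. Members therefore sat closer together than other peaks of their list in all 5 lists, as the choice of a dense stretch implies.

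The pairs of lists with a shared identifier moved in opposite directions. Treated list 1 had 2.86 times as many peaks in the stretch as untreated list 1, against 2.07 times in the rest of the genome. Treated list 3 had 0.159 times as many as untreated list 2, against 0.263 times in the rest. On the log2 scale the share of the list changed by 0.43 in the first pair and by -0.71 in the second. With a single list per group in either pair, these differences could not be tested.

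The dense part did not fill the interval: its distal edge lay near 82 Mb, in all 4 of the longer lists. From 75 to 82 Mb the lists held 157, 82, 452, 247 and 12 peaks (untreated lists 1 and 2, then treated lists 1, 2 and 3), and from 82 to 85 Mb they held 1, 0, 0, 2 and 1. The last peak below 82 Mb ended at 81947593 in untreated list 1 and at 81925346 in untreated list 2. It ended at 81932670 in treated list 1 and at 81996228 in treated list 2, so these 4 ends lay close together with and without the drug. In treated list 3, with few peaks, it ended at 81037838. From 85 to 95 Mb there were 1 and 1 peaks without drug and 0, 9 and 0 with drug. In treated list 1, which had 64.6 peaks per Mb from 75 to 82 Mb, the next peak after 81932670 began at 96177470.

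The proximal edge lay just before the border in untreated list 1 and treated lists 1 and 2. From 70 to 75 Mb there were 3.0 and 2.8 peaks per Mb without drug and 12, 10.4 and 0 with drug, but these peaks were unevenly spread. The 0.5 Mb bin just before the border held 5, 1, 17, 5 and 0 peaks in untreated lists 1 and 2 and treated lists 1, 2 and 3. The 0.5 Mb bin just after it held 4, 5, 29, 11 and 3. Further out on the proximal side the bins were nearly empty. The second bin before the border held 1 peak, in untreated list 1, and the bin preceding that was empty in every list. The members nearest to the border had scores of 8.44 and 4.05 without drug and 5.47, 15.7 and 5.30 with drug. The last peaks before it scored 11.2 and 4.005, and 9.07, 5.36 and 4.42. The bins on both sides of the distal border at 85 Mb were empty in every list.

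**Figure D1:**
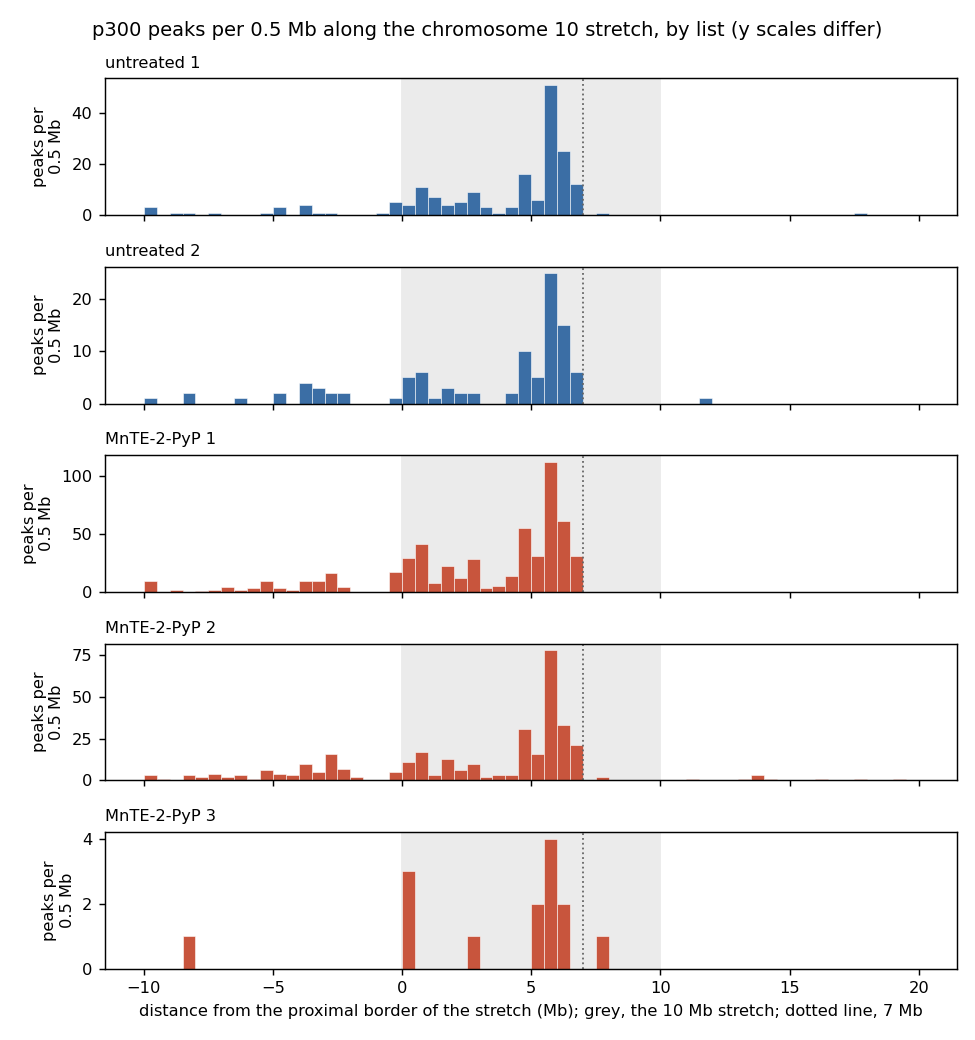
Number of p300 peaks per 0.5 Mb bin (y axis, with its own scale in each panel) against distance from the proximal border of the stretch in Mb (x axis), with 1 panel per list, untreated in blue and treated in red. The grey area is the 10 Mb stretch and the dotted line stands 7 Mb into it, after which the lists hold 0 to 2 peaks up to the end of the stretch.

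Of the 20 bins of 0.5 Mb, 10 were dense in at least 4 lists and 5 in all 5 lists, where dense means at least 3 times the list's mean per bin over all chromosomes. By list, 13 and 11 bins were dense without the drug and 14, 10 and 6 with it. The 3 fullest bins lay next to or near one another. The bin from 80.5 to 81 Mb held 270 of the 954 members, that from 81 to 81.5 Mb held 136, and that from 79.5 to 80 Mb held 112. The fullest held 51 and 25 peaks without drug and 112, 78 and 4 with drug. It was the fullest bin of the stretch in each list.

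The fullest bin took 32.3% and 30.5% of the stretch peaks of the untreated lists and 24.8%, 31.3% and 30.8% of those of the treated lists. The bin from 79.5 to 80 Mb took 10.1% and 12.2% without the drug and 12.2% and 12.4% in treated lists 1 and 2, with no peak in treated list 3. In the bin from 81 to 81.5 Mb the shares were 15.8% and 18.3% against 13.5%, 13.3% and 15.4%. Both untreated values lay above the treated ones, but the 15.4% of treated list 3 is 2 of its 13 peaks. The bin just before the fullest one separated the groups the other way. There every treated share lay above both untreated shares, and treated list 3 again held 2 peaks. How many bins separate the groups on this measure, in either direction, was not counted, so neither bin shows an effect of the drug. In the fullest bin and in that from 79.5 to 80 Mb the groups overlapped. At a scale of 0.1 Mb the bin fullest over all lists ran from 80.9 to 81 Mb, with 19 and 8 untreated and 33, 25 and 2 treated peaks. Untreated list 2 had more peaks, 9, from 81 to 81.1 Mb, where treated list 3 also had 2. A thinner part from 78 to 79.5 Mb separated 2 blocks and held 7 and 2 untreated and 22, 8 and 0 treated peaks. The block from 79.5 to 82 Mb held 648 of the members (67.9%), and the block from 75 to 78 Mb held 263 (27.6%). These block limits were set after the bins were seen.

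As a share of the whole list, no bin separated the groups. Of the 14 bins of the stretch with 5 or more peaks over all lists, 0 had a higher share of the list in both untreated lists than in every treated list, against 11.3% of such bins genome-wide. Likewise 0 had a higher share in every treated list than in both untreated lists, against 1.74% genome-wide. With 14 bins and so few lists, these counts of 0 do not show that the groups are equal, and no bin was tested alone.

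**Figure D2:**
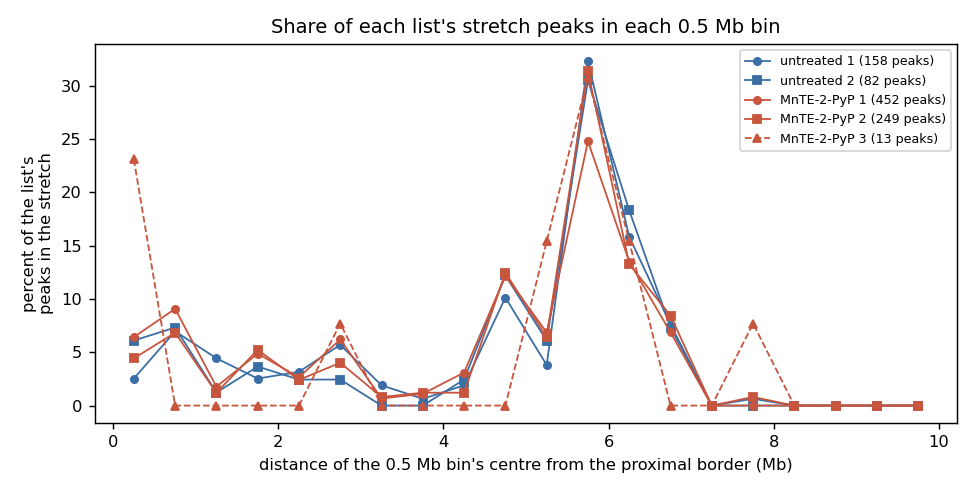
Percent of a list's stretch peaks that fall in each 0.5 Mb bin (y axis) against the distance of the bin's centre from the proximal border in Mb (x axis), 1 line per list, untreated in blue and treated in red. The lines peak together in the bin with 24.8% to 32.3% of the peaks, and the dashed line of treated list 3 rests on 13 peaks.

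By median width, members were wider than the other peaks of their list in all 5 lists. The median width in the stretch was 247.5 bp in untreated list 1, where the rest of the list had 234 bp, and 416.5 bp in untreated list 2, where the rest had 374 bp. In the treated lists 1, 2 and 3 it was 247, 380 and 255 bp, against 232, 321 and 243 bp in the rest. The mean difference was 28.4 bp ± 21.2 (SD, n = 5 lists), in the same direction in 5 of 5 lists. The exact two-sided sign permutation test gave p = 0.062, the smallest value that 5 lists allow, and 0.1875 after Benjamini-Hochberg adjustment over the 3 tests of the stretch against the rest, so the difference did not pass a threshold of 0.05. With means in place of medians the difference was 12.8 bp (exact permutation p = 0.5), and it was not positive in every list.

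The share of wide members was highest in treated list 2, where 19.7% were wider than the list's own 90th percentile, against 9.75% in the rest of the list. The other lists had 13.3% and 13.4% (untreated) and 14.4% and 7.69% (treated lists 1 and 3), against 9.49% to 10.1% in the rest. The widest member of each list lay at 80975480 to 80976157 (678 bp) in untreated list 1 and at 75567420 to 75568200 (781 bp) in untreated list 2. In treated lists 1 and 2 it lay at 81009814 to 81011032 (1219 bp) and at 80624700 to 80626065 (1366 bp), and in treated list 3 at 75100325 to 75100807 (483 bp). Of these peaks, 4 overlapped a peak of 1 other list and that of treated list 3 overlapped peaks of 2 other lists.

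Width in the stretch did not separate the groups. The medians averaged 332 bp ± 119.5 without drug (SD, n = 2) and 294 bp ± 74.6 with drug (SD, n = 3), a difference of -38.0 bp. The exact permutation test (two-sided, 10 ways to split the lists) gave p = 0.6 (adjusted 1), where 0.2 is the smallest value possible. The narrowest member was 199 and 332 bp wide without drug and 193, 291 and 200 bp with drug, and in every list this equals the narrowest peak of the whole list. Median and narrowest width thus rose together across lists, and the part of this floor in the medians was not tested. Within the pairs with a shared identifier the difference was -0.5 bp and -161.5 bp. Without untreated list 2 the treated lists had the wider median, by 46.5 bp.

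In rank of the score the members lay below the middle of their list in 4 of 5 lists. The score percentile runs from the lowest (near 0) to the highest (100) score within a list. Its median in the stretch was 32.01 and 39.7 without drug and 44.1, 55.5 and 24.4 with drug, so only treated list 2 was above the middle. In the rest of the lists the medians were 51.8 and 50.3, and 50.3, 47.0 and 50.9. The mean difference, stretch minus rest, was -10.9 ± 13.4 percentile points (SD, n = 5 lists), and the exact two-sided sign permutation test gave p = 0.1875 (adjusted 0.1875). The difference was -7.03 points without treated list 3.

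Few peaks in the dense part of untreated list 1 and treated list 1 were in the top 10% of their list by score. From 75 to 82 Mb, 0 of 157 peaks of untreated list 1 were in the top 10% of their list, which allows a share of up to 1.91% taken as 3 counts of the total, or 2.32% as the exact 95% limit. In untreated list 2 there were 3 of 82 (3.66%, exact 95% interval 0.761 to 10.3%) and in treated list 1 there were 7 of 452 (1.55%, 0.625 to 3.16%). Treated list 2 had 34 of 247 (13.8%, 9.72 to 18.7%). Treated list 3 had 0 of 12, which allows up to 25% or 26.5% on the same bases. In untreated list 2 and treated list 3 the upper limits thus exceeded 10%. All these limits treat peaks as independent, which neighbouring peaks are not, so none is a test against 10%. The 82 Mb edge, set after the bins were seen, leaves out the highest-scoring member of untreated list 1 and treated lists 2 and 3. Over all members the share in the top 10% was 0.633%, 14.1% and 7.69% in these lists. At the low end, the bottom 25% of a list held 38.0% and 39.0% of the members without drug and 28.5%, 19.7% and 53.8% with drug.

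Treated and untreated lists overlapped in rank. The median percentile averaged 35.9 ± 5.44 without the drug (SD, n = 2) and 41.3 ± 15.7 with it (SD, n = 3). The difference of 5.48 points had p = 0.8 by the exact two-sided permutation test (adjusted 1). It was 12.1 points between untreated list 1 and its treated partner and -15.3 points between untreated list 2 and its partner. Without treated list 2 it was -1.59 points.

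**Figure D3:**
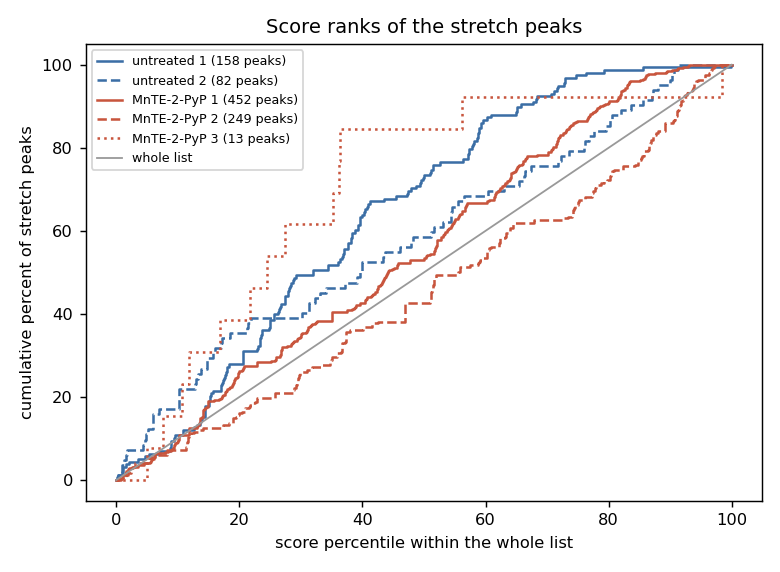
Cumulative percent of a list's stretch peaks (y axis) against score percentile within the whole list (x axis), 1 step line per list, with the grey diagonal for the whole list. The lines of 4 lists run mostly above the diagonal, with medians of 24.4 to 44.1, and that of treated list 2 runs mostly below it, with a median of 55.5.

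The strongest member stood apart from the dense part. It lay at 82556160 to 82556508, and was held by untreated list 1 (score 89.3, rank 4 of 2313), treated list 2 (score 18.4, rank 220 of 10059) and treated list 3 (score 35.6, rank 9 of 528). Untreated list 2 and treated list 1 had no peak there. In the lists that held it, the previous peak lay 609 kb, 560.3 kb and 1519 kb away, while treated list 2 had a further peak 45.4 kb beyond it. It was the highest-scoring member in each of these 3 lists, and the next highest scored 17.7, 15.7 and 8.50. In untreated list 2 the highest-scoring member was at 81711699 to 81712233 (9.90) and in treated list 1 at 77830516 to 77830785 (19.1). The second of these overlapped no peak of another list.

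Sharing of members with other lists was then measured as an overlap of 1 bp or more. It was 64 of 158 peaks in untreated list 1 (40.5%, exact 95% interval 32.8 to 48.6%) and 48 of 82 in untreated list 2 (58.5%, 47.1 to 69.3%). In treated list 1 it was 134 of 452 (29.6%, 25.5 to 34.1%), in treated list 2 it was 114 of 249 (45.8%, 39.5 to 52.2%) and in treated list 3 it was 12 of 13 (92.3%, 64.0 to 99.8%). In the rest of the lists the shares were 43.1% and 32.1% without the drug and 27.5%, 13.3% and 84.47% with it. The stretch was higher in 4 of 5 lists, by 13.2 points ± 15.4 on average (SD, n = 5 lists, exact two-sided sign permutation p = 0.1875, adjusted 0.1875). This test cannot decide whether the stretch differs in sharing. The density by which the stretch was chosen raises overlap, and overlap is mutual, so the 5 values are not independent. The gap was widest in untreated list 2 and treated list 2. Leaving out a list also removes its peaks as partners, and the mean was then 1.77 points (treated list 1 left out), 2.78 points (treated list 2) or 8.64 points (untreated list 2). With peaks at or above the median score of their list the sign turned, to -3.19 points (exact permutation p = 0.75).

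Density bears on these overlaps directly. From 75 to 82 Mb, peaks of the other lists covered 3.49% and 3.59% of the length for the untreated lists and 2.47%, 2.79% and 3.90% for the treated lists. A peak of the list's median width would touch such a peak at 5.71% and 7.56% of these positions for the untreated lists and at 3.94%, 5.98% and 6.49% for the treated lists. In the fullest bin it would do so at 22.2% and 29.0%, and at 17.4%, 22.8% and 25.6%, while the measured share there was 45.1% and 60.0%, and 40.2%, 52.6% and 100% (4 of 4). Measured sharing was thus above the touchable share of positions in each list, and less far above it in the fullest bin. The touchable share treats all positions of a window alike, while peaks cluster within it. Whether sharing went beyond local density was therefore not tested.

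Untreated and treated lists did not separate in the share of members found elsewhere. The means were 49.5% ± 12.7 (SD, n = 2) and 55.9% ± 32.5 (SD, n = 3), a difference of 6.39 points with p = 1 by the exact two-sided permutation test (adjusted 1). A list meets more partners when the other lists are long, so this share also depends on list length. The difference was -10.9 points in the first pair with a shared identifier and 33.8 points in the second. Without treated list 3 it was -12.4 points, and without untreated list 1 it was -3.13 points.

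**Figure D4:**
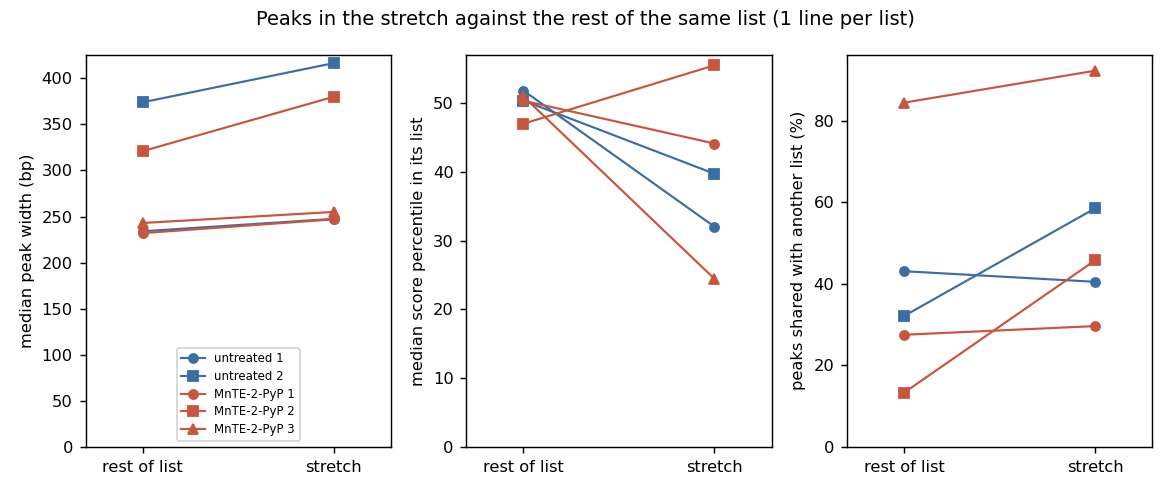
Median peak width in bp, median score percentile and percent of peaks shared with another list (y axes, from left to right), for the rest of a list and for the stretch, with 1 line per list, untreated in blue and treated in red. Median width is higher in the stretch in 5 of 5 lists, the percentile is lower in 4 of 5 and the shared percent is higher in 4 of 5.

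Treated lists 1 and 2, which hold the most members, also shared the largest number of peaks. Of the members of treated list 2, 80 of 249 (32.1%) overlapped treated list 1, and 84 of 452 (18.6%) of the members of treated list 1 overlapped treated list 2. In the rest of the genome these shares were 9.28% and 21.5%. The untreated lists had little in common in the stretch: 9 of 158 peaks (5.70%) of list 1 overlapped list 2, and 8 of 82 (9.76%) of list 2 overlapped list 1. In the rest of the genome they overlapped at 16.6% and 17.1%. Untreated list 2 overlapped treated lists 1 and 2 at 36.6% and 35.4%, against 22.6% and 25.9% in the rest of the genome. Untreated list 1 overlapped them at 26.6% and 17.7%, against 31.0% and 33.0% in the rest. Against the rest, the stretch was thus higher for untreated list 2 and lower for untreated list 1. Both untreated lists overlapped these treated lists more than each other, in the stretch and in the rest alike. These treated lists also hold more peaks than either untreated list, in the stretch and in all, so the overlaps depend on list length as well.

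Merging overlapping peaks of all lists gave 744 regions in the stretch, of the 16701 in the genome. Of these, 162 were in 2 or more lists (21.8%, exact 95% interval 18.9 to 24.9%), against 10.4% of all regions. In 3 or more lists there were 31 (4.17%), close to the 4.23% of all regions. In 4 or 5 lists there were 6 (0.806%), against 2.04%, and 1 region (0.134%) was in all 5, against 0.886%. Regions in exactly 2 lists made up 17.6% of the stretch (131), against 6.2% of all regions, and regions in exactly 3 lists 3.36% (25, exact 95% interval 2.19 to 4.92%), against 2.19%. A region in at least 1 list of each group was found 97 times (13.0%), against 7.32% of all regions. The lists weigh unequally in these shares: treated list 2 holds 249 of the 954 members but 10059 of all 19861 peaks. The parts of this make-up and of the density by which the stretch was chosen were not tested.

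The region in all 5 lists lay in the second fullest bin, at 81006042 to 81007434. Its highest score was 11.2 and 5.93 without drug and 7.83, 5.52 and 3.17 with drug. It is 1393 bp wide and joins 2 peaks of untreated list 1, and no single peak of any list overlapped peaks of all 4 others. The 5 regions in 4 lists lay at 79855928 to 79856950 (scores 9.76, 4.86, 14.8 and 4.89) and 79821021 to 79821774 (5.88, 2.50, 9.07 and 8.71). Further ones lay at 81797832 to 81798505 (3.93, 6.34, 8.22 and 4.27) and 81782018 to 81782913 (5.87, 5.55, 4.14 and 5.51). These 4 were missing from treated list 3, and their scores are given for untreated lists 1 and 2 and treated lists 1 and 2. The fifth, at 80953510 to 80954262, was missing from untreated list 1 and scored 3.86 in untreated list 2 and 7.96, 4.38 and 5.85 with drug.

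Of the regions in exactly 3 lists, 10 joined untreated list 2 to treated lists 1 and 2, and 7 joined untreated list 1 to them. Beside the isolated peak, those with the highest mean percentile were at 77743500 to 77744384 and 79661207 to 79661680, with mean percentiles of 82.2 and 75.2. The first scored 9.78 in untreated list 1 and 13.6 and 10.0 in treated lists 1 and 2. The second scored 6.92 in untreated list 2 and 9.39 and 6.97 in the same treated lists. They were followed by regions starting at 81063101, 77816088, 81016892, 79539564, 80969981 and 81141507, all in untreated list 2 and treated lists 1 and 2, with mean percentiles of 61.2 to 66.1. Of the 31 regions in 3 or more lists, 25 lay in the block from 79.5 to 82 Mb.

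Regions held by 2 or more lists of 1 group and none of the other were few, apart from those shared by the 2 longest lists. In both untreated and no treated list there were 3 regions (0.403%), against 0.186% of all regions. They lay at 75205288 to 75205861 (scores 11.1 and 5.29 in untreated lists 1 and 2), 81030452 to 81030956 (8.95 and 3.60) and 80660097 to 80660460 (5.39 and 2.41). Regions held by treated lists only, and by at least 2 of them, numbered 62 (8.33%, exact 95% interval 6.45 to 10.6%), against 2.93% of all regions, of which 55 were in treated lists 1 and 2 alone. Without treated list 1 the count was 5, and without treated list 2 it was 5 as well. These lists hold the most members, and their peak density in the stretch was 27.5 and 7.41 times that of the whole list. The 2.93% comes from the same lists. The parts of list length and local density in this count were not tested.

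In all 3 treated and no untreated list there were 3 regions (0.403%), against 0.24% of all regions. One lay at 81037371 to 81038138 and scored 8.46, 8.88 and 4.95 (treated lists 1, 2 and 3). Another lay close to the proximal border at 75100317 to 75100825, with 5.69, 15.7 and 5.30. The last lay at 80982836 to 80983524, with 6.32, 4.13 and 5.75. Among regions in exactly 2 treated lists, those with the highest mean percentile were at 77935429 to 77935833 (10.5 and 9.38 in treated lists 1 and 2) and 81680743 to 81681097 (9.58 and 9.14). No region was tested alone: 2 lists against 3 allow no p below 0.1 in Fisher's exact test.

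**Figure D5:**
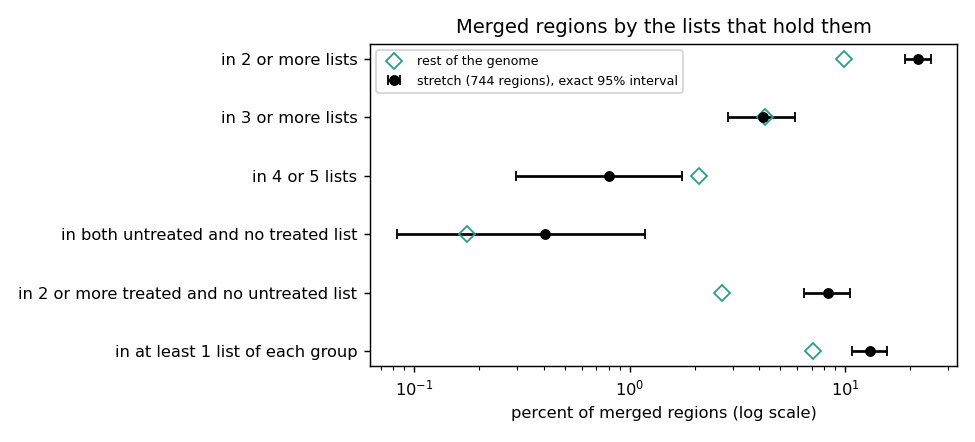
Percent of merged regions (x axis, log scale) that meet each rule on the lists that hold them (y axis), as black points with exact 95% intervals for the 744 regions of the stretch and as open diamonds for the rest of the genome. The stretch stands above the rest for 2 or more lists (21.8% against 9.90%) and below it for 4 or 5 lists (0.806% against 2.09%). The lists weigh unequally in the stretch and the rest, and local density was not taken into account.

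Members shared with another list were wider than unshared members in every list. The medians, shared and then unshared, were 251.5 and 243.5 bp in untreated list 1 and 451 and 378.5 bp in untreated list 2. In the treated lists they were 282.5 and 242 bp, 404 and 369 bp, and 279 and 204 bp, the last value being that of a single peak. A wider peak has more positions at which it can touch another, so width and sharing are not independent. Score rank did not follow sharing in the same way. The median percentile of shared members was below that of unshared members in untreated list 1 (27.9 against 36.4), untreated list 2 (38.1 against 43.9) and treated list 2 (51.5 against 57.5). It was above it in treated list 1 (54.2 against 42.7) and, against a single unshared peak, in treated list 3 (25.9 against 11.7).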

How the data were processed

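p300 was profiled by chromatin immunoprecipitation and sequencing on the Ion Proton platform from chromatin sheared to about 100 to 300 bp, per the labels' protocols. The submitters' processing notes name hg19 and MACS2. Neither the version nor the threshold of MACS2, the aligner or the input used for each library is given in the sources used here. The authors deposited 1 list per library with a score per peak of unnamed scale, used for ranks and, as an alternative setting, for a common minimum. Depth is unknown. Deposited positions were counted from 1 by adding 1 to the start.

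Members had their midpoint from 75 to 85 Mb. Percentiles are ranks within a whole list. Regions merge peaks that overlap by 1 bp or more. Groups were compared over lists by exact two-sided permutation of the 10 splits (smaller tail doubled), and stretch against rest by exact sign permutation of the 32 arrangements. Tests were adjusted by Benjamini-Hochberg within 2 families of 3. Nothing says which cultures the libraries came from beyond the term biological replicates, so p-values measure only the spread between these lists.

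Named were the 3 fullest bins, up to 15 regions in 3 or more lists, up to 5 per direction of treatment, and the highest-scoring and widest member of each list. Members, tests and rules were chosen with earlier results of these data known. On simulated data the counting of regions recovered 400 of 400 with their lists. The planted regions stood too far apart to touch one another, so this did not test the merging of neighbours at the density of the stretch. The alternatives were score minima, required overlap, merging distance, borders, bin size, means for medians, left-out lists and pairing. The removal of the fullest bin was added after seeing the data. Software was matplotlib 3.10.9, scipy 1.17.1, pandas 2.3.3 and numpy 2.4.6 under Python 3.11.15.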

Additional observations from a re-analysis of the deposited data

Results flagged for a closer look

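The 2 pairs of lists that share an identifier in their peak names moved in opposite directions in 3 measures of the stretch, and the difference between the pairs was not tested because each holds 1 list per group. The share of the list in the stretch, as log2 of treated over untreated, was 0.43 between the lists numbered 1 and -0.71 between untreated list 2 and treated list 3. The median score percentile, treated minus untreated, was 12.1 and -15.3 points. The percent of members shared with another list, treated minus untreated, was -10.9 and 33.8 points. Treated list 3 enters the second pair with 13 members.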

How the results depend on the processing

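There were 138 alternative values: 109 kept their sign (counts: remained within 1.5-fold), 11 changed sign and 18 moved further. Moving both borders together by 0.5 Mb, outwards or inwards, changed no sign and moved no count by over 1.5-fold. The same held for a common score minimum, 50% overlap and the rest of chromosome 10 as the rest. It also held for 0.25 Mb bins and a dense threshold of 2 times the mean. With peaks at or above the median score of their list the log2 ratio of the share became 0.20 in place of -0.21, sharing against the rest became -3.19 points, and the regions in both untreated lists only, in 2 or more treated lists only, in 3 or more lists and in 2 or more lists numbered 1, 26, 6 and 49. Merging within 500 bp gave 1 region in both untreated lists only and 56 in 3 or more lists. Without the fullest bin 41 regions were in 2 or more treated lists only and 105 in 2 or more lists, since fewer peaks remain. Leaving out 1 list gave ranges of -1.14 to 0.23 for the log2 ratio, -122.5 to 46.5 bp for width, -1.59 to 13.9 points for percentile and -12.4 to 18.9 points for sharing, treated minus untreated. The counts ran from 3 to 97 (untreated only), 5 to 73 (treated only), 7 to 25 (3 or more lists) and 62 to 158 (2 or more lists), because fewer lists define each set. With the replicate number as a block the difference in sharing was -11.8 points (exact permutation p = 0.5), and the numbers do not pair the samples, since only lists numbered 1 also share an identifier. With the identifier as a block the difference in percentile was -1.59 points. Apart from the counts named here, the cause of a change was not tested. Unknown depth limits every count, and 13 members limit treated list 3.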
